A study of Mus musculus with 9 samples.

Results

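The genes described here are the enzymes that build purine and pyrimidine nucleotides from small precursors: Ppat, Gart, Pfas, Paics, Adsl, Atic, Impdh1, Impdh2, Cad and Umps. They were chosen by name, with earlier results of these data known. All 10 are among the 26214 genes of the deposited expression table. All 10 also passed the filter on low values, a mean of at least 10 normalised counts, that left 13601 genes to test. RNA of sorted cells of adult male C57Bl/6 mice was sequenced 1 day after an injection into the quadriceps muscle, either of NaCl as the control or of glycerol, which damages muscle fibres. Adipose stromal cells (ASCs) came from the subcutaneous adipose tissue of NaCl-injected mice (3 libraries). Fibro-adipogenic progenitors (FAPs), the stromal progenitors of muscle, came from the quadriceps of NaCl-injected mice (2 libraries) or of glycerol-injected mice (3 libraries, called injured FAPs). Both cell types were sorted as CD31−/CD45−/Sca-1+ cells, and each library came from a pool of cells of several animals. A further library of CD31+CD45+ cells, the endothelial cells and leukocytes of glycerol-injected quadriceps, is a single one and was not tested.

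De novo synthesis builds the purine ring step by step on a sugar phosphate, phosphoribosyl pyrophosphate, until inosine monophosphate (IMP) is formed, from which branches lead to the adenine and the guanine nucleotides. Pyrimidines are made the other way round: the ring is closed first and then joined to the sugar phosphate, which gives uridine monophosphate. Cells can also recover bases and nucleosides by salvage, and a cell that makes much RNA or copies its DNA draws heavily on both sources.

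The libraries held 27349184 to 27481573 reads on genes in ASCs, 24052508 and 24164447 in FAPs, 26698572 to 27028114 in injured FAPs and 13091077 in the CD31+CD45+ library. Among the 8 libraries compared, each member had between 157 and 8169 reads, so counting error is small for these genes. Of 5 markers of the sorted stromal cells, Pdgfra, a receptor of stromal progenitors, read 10837 to 25268 normalised counts in the 8 libraries and 119 in the CD31+CD45+ library, and Pdpn and Thy1 were also lowest in that library. Ly6a, the gene of Sca-1, and Cd34 were not, at 17672 and 17085 there, within the range of the 8. Injured FAP replicate 2 stood apart in its leukocyte genes. The 9 leukocyte markers summed to 2463 in it and to 556 and 462 in the other injured FAP libraries, with Lyz2 the most abundant of them at 725. In FAPs they summed to 265 and 497, mostly Cd68 (254 and 477), and in ASCs to 372 to 461. In FAPs 6 of the 9 (Ptprc, Lyz2, Csf1r, Adgre1, S100a9 and Cd74) were at 0 in both libraries. None of the 9 was at 0 in any injured FAP library, where Lyz2 read 142, 725 and 109 and Cd74 115, 575 and 103. Neither the strand setting of the counting nor its treatment of reads with several matches is stated, which makes some members less certain. Ppat and Paics share 272 bases of exons on opposite strands, Gart and Umps lie over antisense transcripts, Impdh2 overlaps Ndufaf3 by 48 bases and has a near-identical processed pseudogene, and Pfas carries a stretch that recurs in transcripts of 46 other genes.

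The members lie on 7 chromosomes of the GRCm38 genome, and 1 pair of them is adjacent. Ppat (chr5:76913249-76951578, minus strand) and Paics (chr5:76951307-76967509, plus strand) are transcribed in opposite directions from overlapping 5′ ends, with RefSeq starts 276 bases apart. Promoter windows of 300 bases, from 250 before to 50 after the start, were found for 9 of 10 members in the RefSeq table of GRCm38.p6, with no entry for Pfas and a pair of windows for Impdh1. They are shown for this head-to-head pair and for the members whose window holds CACGTG, the letters read by Myc-type factors. Inside the windows capitals mark these letters, the CCAAT box and the GC box on whichever strand they occur, so that the boxes also show as their reverse complements. The GC box is searched as GGGCGG, and in Atic a pair of its matches overlap by a base. The windows are chr5:76951529-76951828 (minus strand) for Ppat, chr5:76951052-76951351 (plus strand) for Paics, chr1:71556906-71557205 (plus strand) for Atic and chr9:108560186-108560485 (plus strand) for Impdh2.
Ppat: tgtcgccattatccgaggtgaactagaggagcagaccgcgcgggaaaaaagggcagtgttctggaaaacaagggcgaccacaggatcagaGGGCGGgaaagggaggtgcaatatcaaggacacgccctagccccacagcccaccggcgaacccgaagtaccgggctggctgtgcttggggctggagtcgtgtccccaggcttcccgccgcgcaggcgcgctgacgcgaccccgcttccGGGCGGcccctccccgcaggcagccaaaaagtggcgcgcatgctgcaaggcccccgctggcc
Paics: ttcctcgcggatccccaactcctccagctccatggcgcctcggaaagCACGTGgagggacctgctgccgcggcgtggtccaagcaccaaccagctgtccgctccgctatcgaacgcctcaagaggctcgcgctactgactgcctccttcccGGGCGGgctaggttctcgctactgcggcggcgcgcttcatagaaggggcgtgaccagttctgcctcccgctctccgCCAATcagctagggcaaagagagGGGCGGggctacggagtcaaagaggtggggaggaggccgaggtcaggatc
Atic: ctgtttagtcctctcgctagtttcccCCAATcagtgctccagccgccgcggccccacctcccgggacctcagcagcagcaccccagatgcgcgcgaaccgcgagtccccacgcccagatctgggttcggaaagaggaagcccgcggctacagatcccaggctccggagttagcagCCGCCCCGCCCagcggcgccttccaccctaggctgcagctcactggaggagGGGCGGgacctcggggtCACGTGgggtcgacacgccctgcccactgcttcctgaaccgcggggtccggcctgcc
Impdh2: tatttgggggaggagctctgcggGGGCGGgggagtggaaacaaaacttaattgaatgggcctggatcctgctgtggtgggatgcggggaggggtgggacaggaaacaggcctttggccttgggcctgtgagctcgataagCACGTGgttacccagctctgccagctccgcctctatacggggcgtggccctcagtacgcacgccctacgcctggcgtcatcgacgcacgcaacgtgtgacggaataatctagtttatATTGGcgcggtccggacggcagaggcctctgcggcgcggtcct
CACGTG stood in 3 of the 10 windows, 203 bases before the start of Paics, 110.0 before that of Impdh2 and 7 before that of Atic. It is held by 7.15% of all 32851 windows and by 9.65% of the 13766 windows of tested genes. GGGCGG stood in all 10 windows, against 35.7% of all windows and 61.6% of those of tested genes. CCAAT stood in the windows of Atic, Gart, Impdh2 and Paics, against 37.4% of all windows. The NRF1 motif, also searched on both strands, stood in 0 of the 10 and in 0.971% of all windows. These matches describe letters, show no binding and were not tested against the changes in expression.

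The comparison of injured FAPs with FAPs asks what differs 1 day after muscle damage in cells sorted by the same surface markers. The paper reports that adipose stromal cells enter the injured muscle by then, so the sorted populations need not be the same. The part of such cells in the result was not tested. Enzymes of every stage of nucleotide synthesis were higher after injury. A gene is called where limma gives it an adjusted p under 0.05 together with a log2 fold change past 0.58. In injured FAPs 9 of 10 members were called higher, where 24.9% of all tested genes were, and 0 were called lower, where 27.7% were (52.6% in either direction). No member was lower at an unadjusted p or by edgeR or DESeq2 either. For all 10 members every injured FAP library lay above every FAP library, which was so for 40.4% of the tested genes (43.6% lay below). The median log2 fold change of the members was 1.61, beside −0.05 over all tested genes. Added up, the 10 members had 8981 and 8811 normalised counts in the FAP libraries and 25532, 24951 and 25375 after injury, a ratio of means of 2.84. In bulk RNA of sorted cells, a change in the share of cells that express a gene and a change in RNA per cell cannot be told apart.

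Ppat, glutamine phosphoribosyl pyrophosphate amidotransferase, makes the first committed step towards purines. It read 194 and 156 normalised counts in FAPs and 655, 623 and 679 in injured FAPs, with 350.4, 277 and 239.8 in ASCs. All injured FAP libraries were high, the FAP libraries were the lowest, and no groups overlapped. The log2 fold change in injured FAPs against FAPs was 1.90 ± 0.173 (SE, adjusted p = 7.38e-06), with a 95% interval from 1.51 to 2.28.

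Gart carries several early steps of ring building on a single protein. Its counts were 639 and 710.3 in FAPs, 2071, 2065 and 2147 in injured FAPs, and 474, 820.0 and 586 in ASCs. The injured FAP libraries lay far above the rest, and the FAP values fell inside the spread of the ASC values. Its log2 fold change after injury was 1.63 ± 0.187 (SE, adjusted p = 3.42e-05). Pfas, which adds a nitrogen from glutamine, read 361 and 372 in FAPs, 938, 951 and 923 in injured FAPs, and 216, 242 and 197 in ASCs. Here the groups formed separate steps, with ASCs at the bottom and injured FAPs at the top. Its log2 fold change after injury was 1.35 ± 0.123 (SE, adjusted p = 7.39e-06).

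Paics is a fused carboxylase and synthetase of the middle of the route. It had the most normalised counts of the IMP-route members in every library, before any correction for length. It read 1600.4 and 1422 in FAPs, 4603, 4335 and 4729 in injured FAPs, and 1834, 2084 and 1828 in ASCs. Injured FAPs were high in all libraries, and ASCs lay just above FAPs without overlap. The log2 fold change after injury was 1.59 ± 0.103 (SE, adjusted p = 9.86e-07). The shared exon bases of the pair allow some reads of one gene to be counted for the other, and their part in the result was not tested.

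Adsl, a lyase used both on the way to IMP and in the adenine branch, read 543 and 520.3 in FAPs, 1131, 1093 and 1127 in injured FAPs, and 469, 564 and 403 in ASCs. It had the smallest rise of the IMP route, with a log2 fold change of 1.07 ± 0.138 (SE, adjusted p = 7.77e-05). Atic closes the ring and releases IMP. It read 1258 and 1096 in FAPs, 3714, 3594 and 3651 in injured FAPs, and 960.4, 1288 and 965 in ASCs. For both genes the injured FAP libraries stood clear of all others while FAPs and ASCs overlapped. The log2 fold change of Atic after injury was 1.64 ± 0.136 (SE, adjusted p = 4.11e-06).

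**Figure D1:**
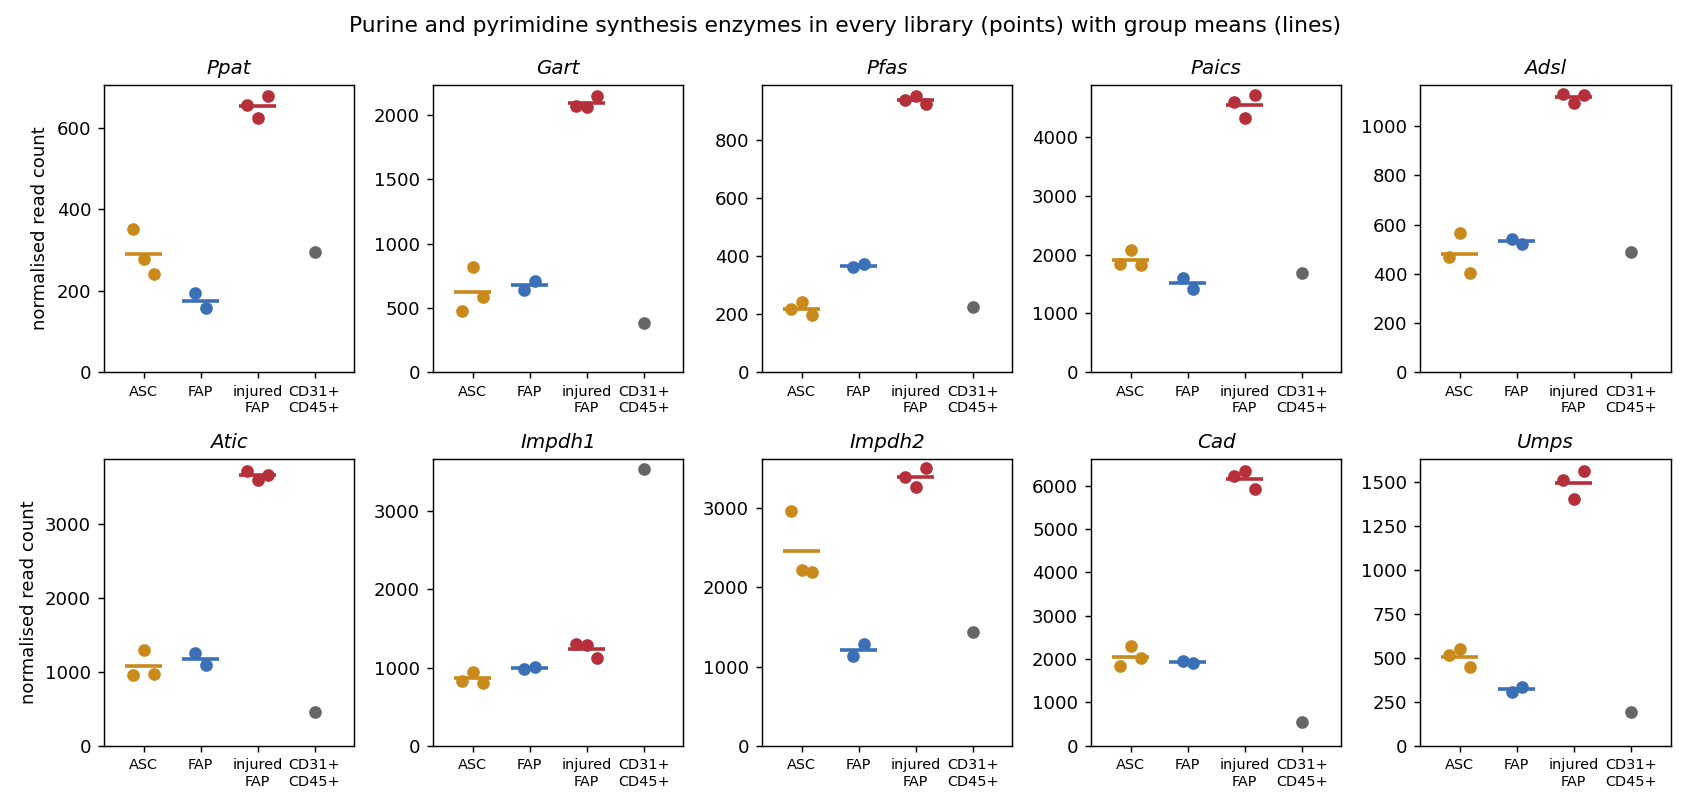
Normalised counts of each of the 10 members in every library (vertical axis from 0), with a point for each library coloured by group and a line at each group mean. Injured FAPs are the highest of the 3 compared groups for each member, and Impdh1 alone reaches its highest value, 3531, in the CD31+CD45+ library.

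The guanine branch starts with inosine monophosphate dehydrogenase, its rate-limiting enzyme, which mice make as isozymes from a pair of genes. Impdh2 read 1136 and 1280.4 in FAPs, 3389, 3270.4 and 3503 in injured FAPs, and 2967, 2214 and 2187 in ASCs. FAPs were the low group and injured FAPs the high group, with ASCs between and no overlap. Its log2 fold change after injury was 1.49 ± 0.136 (SE, adjusted p = 7.76e-06). Impdh1 read 986 and 1003 in FAPs, 1302, 1282 and 1118 in injured FAPs, and 829.9, 948 and 803 in ASCs. The groups did not overlap, yet they lay close together. With a log2 fold change of 0.31 ± 0.114 (SE, adjusted p = 0.0353), Impdh1 stayed under the fold threshold and was the member not called.

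The pyrimidine route needs few genes because its enzymes are fused. Cad joins carbamoyl phosphate synthetase, aspartate transcarbamylase and dihydroorotase in a single protein. Its counts were 1956 and 1916 in FAPs, 6217, 6331 and 5932 in injured FAPs, and 1828, 2297 and 2014 in ASCs. Every injured FAP library stood above the rest, and FAPs and ASCs overlapped. The log2 fold change after injury was 1.67 ± 0.108 (SE, adjusted p = 9.87e-07). Umps, which forms uridine monophosphate, read 307 and 335 in FAPs, 1511, 1407 and 1566 in injured FAPs, and 516, 549 and 448 in ASCs. All 3 groups were separate, with FAPs lowest. Umps had the largest log2 fold change of the 10 members, 2.22 ± 0.121 (SE, adjusted p = 4.58e-07).

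Against all 13601 tested genes, the log2 fold changes of the 9 called members stood between the 85.7th percentile (Adsl) and the 95.4th (Umps), and Impdh1 stood at the 64.2nd. Without injured FAP replicate 2, the library high in leukocyte genes, the same number of members was called higher. When each library was scaled to an equal total, the median of all genes moved by 0.13 in this comparison, and 9 members were again called higher. The p-values cover the spread between these pooled libraries only.

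**Figure D2:**
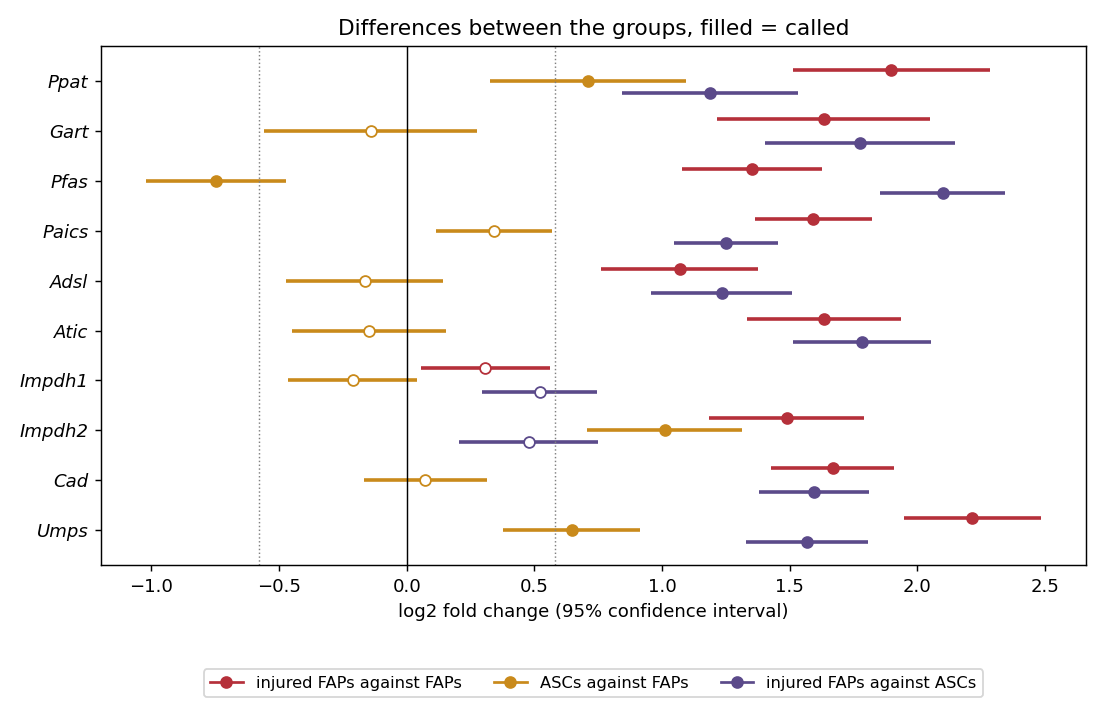
Log2 fold change of each member in the 3 comparisons, with bars for the 95% interval of the limma fit, filled points for called genes and dotted lines at the fold threshold of 0.58. In injured FAPs against FAPs every member lies above 0, from 0.31 for Impdh1 to 2.22 for Umps.

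The comparison of ASCs with FAPs sets the stromal cells of fat beside those of muscle without injury, and it shares the FAP libraries with the comparison above. Here the members did not move as a group. In ASCs 3 of 10 members were called higher (23.4% of all tested genes) and 1 was called lower (23.8%, or 47.2% in either direction), and the median log2 fold change was −0.03, beside 0.00 for all tested genes. Impdh2, already listed library by library, was 1.01 ± 0.136 higher (SE, adjusted p = 0.000128), Ppat 0.71 ± 0.173 (adjusted p = 0.00498) and Umps 0.65 ± 0.121 (adjusted p = 0.00104). Pfas was the member called lower, at −0.75 ± 0.123 (SE, adjusted p = 0.000471). In each of these genes all ASC libraries lay on the same side of both FAP libraries. Paics was also higher in every ASC library, a separation found for 36.8% of tested genes, but its log2 fold change of 0.34 was under the threshold. Impdh1 was lower in every ASC library, as were 35.4% of tested genes, with −0.21 (adjusted p = 0.132). Gart, Adsl, Atic and Cad overlapped between the groups, with log2 fold changes of −0.14, −0.16, −0.15 and 0.07.

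These ASC differences rest on how the libraries are scaled. The authors' size factors were 0.759 to 0.883 in ASCs and 1.05 to 1.06 in FAPs although the libraries held similar numbers of reads, so ASC values are multiplied up. With a common 75th percentile the median of all genes in ASCs against FAPs moved by −0.21, and with equal totals by −0.56. All tested genes split into 3183 higher and 3233 lower as deposited, into 2452 and 4142 with a common 75th percentile and into 1594 and 6317 with equal totals. The higher calls of the members went from 3 to 1 (Impdh2) and to 0, and the lower calls from 1 to 1 and to 5 (Gart, Pfas, Adsl, Atic and Impdh1). Ppat then read 0.50 and 0.15, Umps 0.44 and 0.08, and Impdh2 had 0.44 with equal totals. Paics turned from 0.34 to −0.23 with equal totals, and Cad from 0.07 to −0.23, −0.14 and −0.49 under quantile normalisation, a common 75th percentile and equal totals. Pfas was lower under each scaling. A single library also decided the Ppat call, which was lost without ASC replicate 1 (0.56) and without FAP replicate 2 (0.56), and Gart turned to 0.04 without ASC replicate 1.

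**Figure D3:**
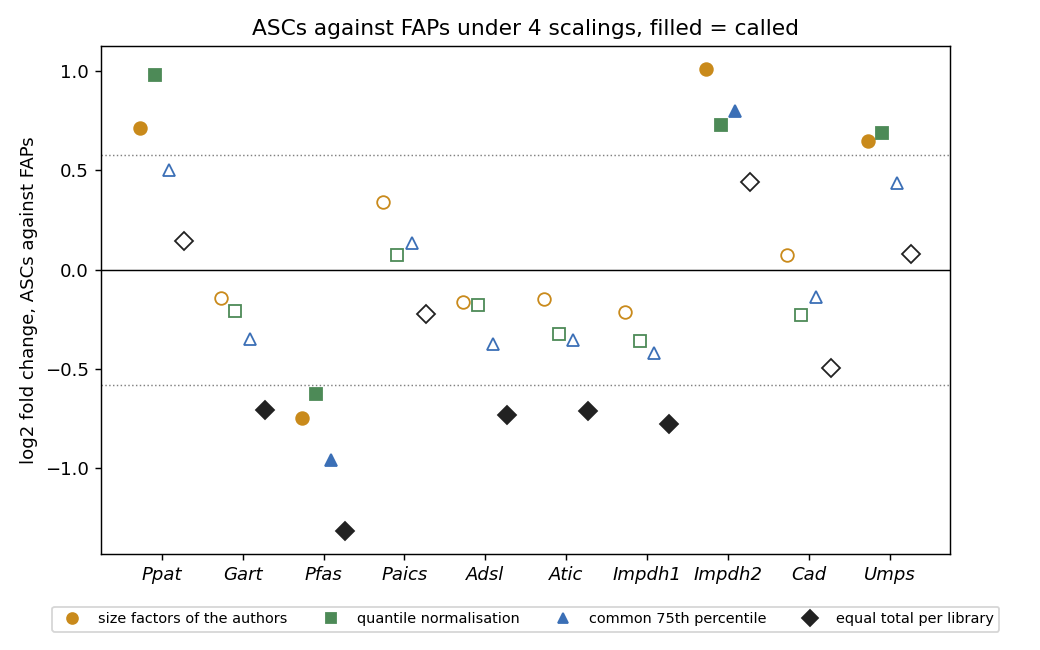
Log2 fold change of each member in ASCs against FAPs under 4 scalings of the libraries, filled where called, with dotted lines at the threshold of 0.58. Pfas is called lower under each scaling, while Paics and Cad change sign between scalings.

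Injured FAPs were also compared with ASCs directly, and this comparison shares the injured FAP and ASC libraries with the others. In injured FAPs 8 of 10 members were called higher, where 25.0% of all tested genes were, and 0 lower, where 25.8% were (50.8% in either direction). By edgeR 9 were higher, and 0 were lower by edgeR, by DESeq2 or at an unadjusted p. All 10 lay above every ASC library, as did 36.2% of tested genes, while 35.6% lay below. The median log2 fold change of the members was 1.41, beside 0.02 over all tested genes. Pfas showed the widest gap, 2.10 (95% interval 1.86 to 2.35, adjusted p = 1.36e-07), followed by Gart and Atic at 1.78 each, Cad at 1.60 and Umps at 1.57. Paics, Adsl and Ppat followed at 1.25, 1.23 and 1.19. The members under the fold threshold were those of the guanine branch, Impdh1 at 0.52 (adjusted p = 0.00112) and Impdh2 at 0.48 (adjusted p = 0.00559). Their calls changed with single libraries, since Impdh1 was called at 0.59 when either ASC replicate 2 or injured FAP replicate 3 was left out, and Impdh2 without ASC replicate 1 (0.62). With equal totals the median of all genes moved by 0.69 and all 10 members were called, while all tested genes split into 7377 higher and 1692 lower, against 3405 and 3504 as deposited.

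A ratio of the Impdh isozymes within a library does not depend on any factor applied to the whole library. It was not computed after quantile normalisation, which moves genes by different amounts. Impdh2 was 1.15 and 1.28 times Impdh1 in the FAP libraries, 2.60, 2.55 and 3.13 times in injured FAPs, and 3.57, 2.34 and 2.72 times in ASCs. Both FAP libraries were thus low, and injured FAPs and ASCs overlapped at a higher ratio. The mean log2 ratio in ASCs was 1.50 ± 0.311 (SD, n = 3), that in injured FAPs 1.46 ± 0.163 (n = 3) and that in FAPs 0.28 ± 0.104 (n = 2). Injured FAPs differed from FAPs by 1.18 and ASCs from FAPs by 1.22, each with p = 0.2 in an exact two-sided permutation test and 0.3 after adjustment over the 3 pairs of groups. The test doubles the p of a single tail. That 0.2 is the smallest p it then allows for 3 libraries against 2, so the test cannot reach 0.05. Injured FAPs and ASCs differed by −0.04 (exact permutation p = 0.8, smallest possible 0.1), and the sign turned without ASC replicate 1 (0.13) or without injured FAP replicate 2 (0.01). In the CD31+CD45+ library the order was reversed, with a ratio of 0.405.

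**Figure D4:**
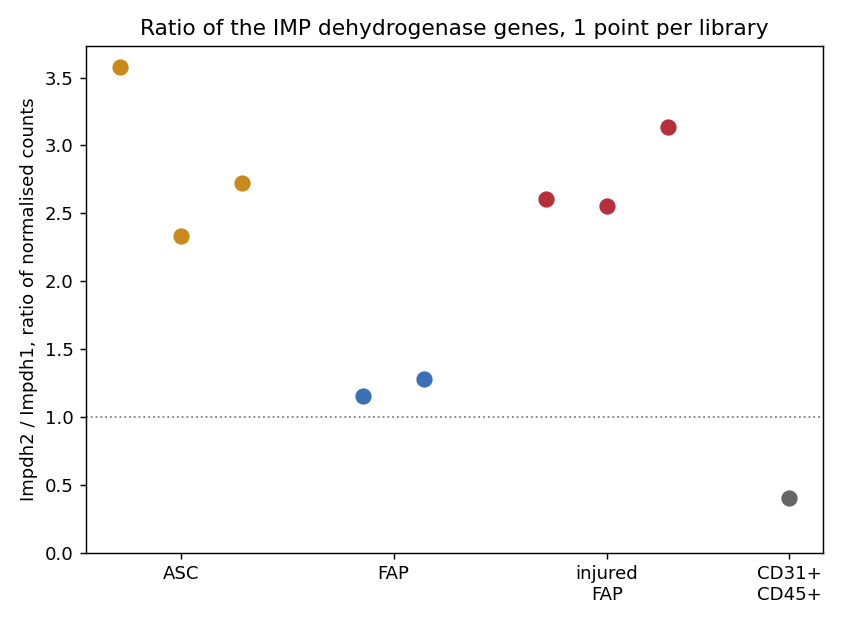
Ratio of Impdh2 to Impdh1 normalised counts in each library, with a point for each library, coloured by group, and a dotted line at equal counts. The FAP libraries lie at 1.15 and 1.28, the ASC and injured FAP libraries between 2.34 and 3.57, and the CD31+CD45+ library at 0.405.

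Counts of different genes were divided by the merged length of all exons annotated for each gene in GENCODE M21. It was 7985 bases for Atic and 3139 for Paics. That length can exceed the transcripts a cell makes, as it joins the exons of all annotated forms. The authors counted reads on another annotation, so the orders below hold for this divisor only. Per kilobase of exons in FAPs, Paics stood first with 481 ± 40.3 normalised counts (SD, n = 2), then Impdh2 with 393 ± 33.1, Impdh1 with 302 ± 3.61 and Cad with 237 ± 3.42. Atic, Gart, Adsl, Umps and Pfas followed per kilobase with 147, 131, 94.4, 92.1 and 46.2, and Ppat was the lowest with 39.6 ± 6.05. Atic and Gart, Adsl and Umps, and Pfas and Ppat are neighbours in that order that differ by less than the sum of their SDs. In injured FAPs the per-kilobase order began with Paics (1451 ± 64.0, SD, n = 3), Impdh2 (1101 ± 37.8), Cad (753 ± 25.1), Atic (457 ± 7.57), Umps (429 ± 23.1) and Gart (407 ± 8.94). Impdh1 stood next per kilobase at 375 ± 30.7, and Adsl, Ppat and Pfas closed the order at 198, 148 and 118. Atic and Umps, Umps and Gart, and Gart and Impdh1 differed by less than the sum of their SDs there. In ASCs Impdh2 and Paics led per kilobase with 798 ± 144 (SD, n = 3) and 610.1 ± 46.6, followed by Impdh1 with 261 and Cad with 250.1. Umps (145), Atic (134), Gart (122), Adsl (85.0) and Ppat (65.4) came after them per kilobase, and Pfas was last with 27.5 ± 2.87. The neighbours in the ASC order that differed by more than the sum of their SDs were Paics and Impdh1, Cad and Umps, and Ppat and Pfas. Ppat and Pfas thus had the lowest means per length in FAPs, injured FAPs and ASCs. In ASCs Ppat and Adsl differed by less than the sum of their SDs.

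By route, the summed counts of the IMP-route members in FAPs were 4436 ± 226 (SD, n = 2), beside 13009 ± 311 after injury (n = 3) and 4599.6 ± 587 in ASCs (n = 3). The guanine-branch pair summed to 2203 ± 114 in FAPs, 4622 ± 69.5 after injury and 3316 ± 425 in ASCs. The pyrimidine pair had 2257 ± 8.36 in FAPs, 7655 ± 136 after injury and 2551 ± 262 in ASCs. The ratios of injured FAPs to FAPs were 2.93 for the IMP route, 2.10 for the guanine branch and 3.39 for the pyrimidine route. Taken as shares of all reads on genes, which carry no size factor, the 10 members together stood in injured FAPs at 3.11 times their FAP level and in ASCs at 0.798 times it.

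The members' neighbours in the pathway were taken from 10 lists of 81 further genes, of which 78 were tested. In injured FAPs against FAPs 44 of the 78 were called higher and 12 lower (24.9% and 27.7% of all tested genes), with a median log2 fold change of 0.71. Phosphoribosyl pyrophosphate, the sugar phosphate both routes use, is made by Prps1 and Prps2. Prps1 read 365 and 338 in FAPs and 1008, 1086 and 1127 in injured FAPs, a log2 fold change of 1.61 ± 0.154 (SE, adjusted p = 1.03e-05). Prps2 rose by less, 0.73 (adjusted p = 0.000398), and the associated proteins Prpsap1 and Prpsap2, named after their values were seen, were not called, at −0.06 and 0.30. Of the 6 genes of the remaining de novo steps, 4 were called higher and 0 lower (24.9% and 27.7% of all tested genes). Ctps, which turns uridine into cytidine triphosphate, read 392 and 312 in FAPs and 2836, 2978 and 2836 in injured FAPs, a log2 fold change of 3.04 ± 0.158 (SE, adjusted p = 3.85e-07). Gmps, the last step to guanosine monophosphate, rose by 1.70, Adss, the first step to adenosine monophosphate, by 1.38 and Dhodh, the mitochondrial step of the pyrimidine route, by 0.87. The isozymes Ctps2 (0.36) and Adssl1 (−0.53) were not called, and Adssl1, near the filter on low values, turned to 0.03 without injured FAP replicate 3.

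Enzymes that make the building blocks of DNA rose furthest, with a median log2 fold change of 3.35. Of 8 deoxynucleotide genes 7 were called higher, beside 24.9% of all tested genes. Rrm2, the regulated subunit of ribonucleotide reductase, read 49.4 and 92.2 in FAPs and 2803, 2859.7 and 2979.9 in injured FAPs. All injured FAP libraries were far above both FAP libraries, and the log2 fold change was 5.39 ± 0.214 (SE, adjusted p = 1.88e-07), or 4.95 to 5.84 without single libraries. Tyms, thymidylate synthase, rose by 3.41 and Rrm1 by 3.28, while Rrm2b, named after its values were seen, had −0.46 and was not called. Among salvage enzymes 7 of 12 were called higher and 1 lower (24.9% and 27.7% of all tested genes). Tk1, the cytosolic thymidine kinase, read 13.3 and 44.2 in FAPs and 1729, 1567 and 1639.8 in injured FAPs, a log2 fold change of 6.01 ± 0.469 (SE, adjusted p = 2.88e-06), which ranged from 5.19 to 6.84 with single libraries left out. Tk2, its mitochondrial counterpart, was the salvage gene called lower, at −1.13. Hprt and Aprt, which return purine bases to nucleotides, rose by 1.29 and 1.53.

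The folate enzymes supply carbon units to the purine ring and to thymidylate. Of these 8 of 9 were called higher (24.9% of all tested genes), with a median log2 fold change of 1.65. Shmt1, the cytosolic serine hydroxymethyltransferase, read 12.4 and 14.1 in FAPs and 469, 404 and 483 in injured FAPs, a log2 fold change of 4.99. Shmt2 and Mthfd2 are mitochondrial enzymes of the same cycle. Shmt2 rose by 1.65, and Mthfd2 from 346 and 399.8 in FAPs to 1721, 1607 and 1817 in injured FAPs (adjusted p = 1.2e-05). Mthfs, named after its values were seen, was the list's gene not called (−0.43). All 3 genes of serine synthesis were called higher, beside 24.9% of all tested genes. Psat1 went from 259.6 and 236 in FAPs to 3105, 2864 and 3084 in injured FAPs (limma adjusted p = 1.58e-06). Phgdh at 1.48 and Psph at 1.25 were named after their values were seen. Of 11 nucleotide kinases 7 were called higher, led by Nme1 at 2.72, and 2 lower (24.9% and 27.7% of all tested genes). Ak3 was called lower at −0.66 and Ak5, named after its values were seen, at −0.92, and the Ak3 call was lost without FAP replicate 1 (−0.58) and with equal totals (−0.53).

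Breakdown enzymes and transporters did not follow the members. Of 16 tested breakdown genes 4 were called higher and 4 lower, beside the 24.9% and 27.7% of all tested genes, with a median log2 fold change of 0.20. Ada, adenosine deaminase, rose by 1.25, and Ampd3 (0.70), Nt5c3 (0.72) and Cda (1.55) also rose. Dpyd, the first step of pyrimidine breakdown, led the falls at −1.91, with Nt5e (−0.92), Pnp2 (−1.54) and Xdh (−1.02), of which Pnp2 and Xdh, like Ampd3, Nt5c3 and Cda, are genes named after their values were seen. The nucleoside transporter Slc29a1 was called lower at −1.14, as was Slc29a3 at −0.74, named after its values were seen. Slc29a2 was called higher at 0.79 (adjusted p = 0.0313), a call lost when any FAP or injured FAP library was left out, with values of 0.67 to 0.90. It was also lost with no filter on low values and with a block for the replicate number (adjusted p = 0.0521).

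**Figure D5:**
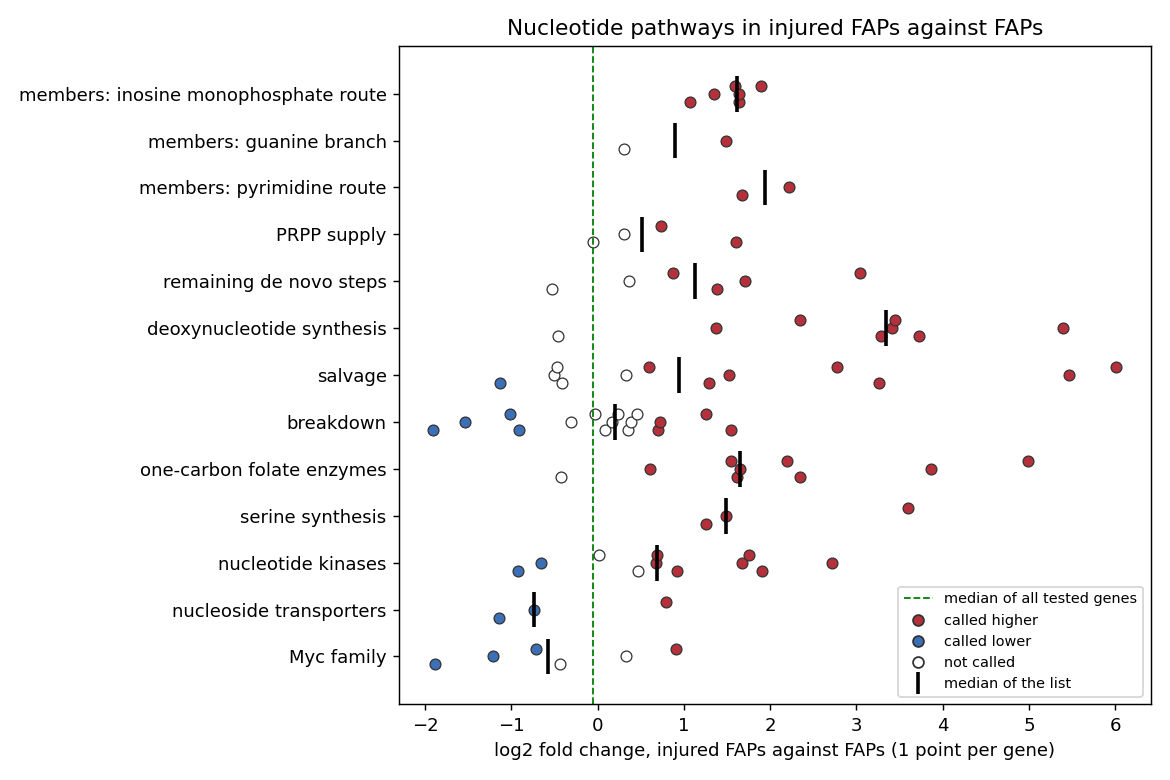
Log2 fold change in injured FAPs against FAPs of each tested gene of the members and the pathway lists, 1 point per gene, filled red where called higher and blue where called lower, with a bar at each list median and a dashed line at the median of all tested genes. Of the members 9 of 10, of the deoxynucleotide genes 7 of 8 and of the folate genes 8 of 9 are red, and the breakdown genes split into 4 red and 4 blue. Of all tested genes 24.9% were called higher and 27.7% lower. The place of Upp1, named after its values were seen, among the salvage genes depends on the added count of 1, since its FAP values of 2.85 and 0.941 are worth at most 3 reads.

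In ASCs against FAPs 29 of the 78 genes of the other lists were called higher and 5 lower (23.4% and 23.8% of all tested genes), and breakdown genes made up 9 of the 29. With equal totals 12 of the 78 were called higher and 28 lower. Gda, guanine deaminase, read 3532, 5108 and 3536 in ASCs and 642 and 521 in FAPs, a log2 fold change of 2.79 ± 0.187 (SE, adjusted p = 1.21e-06). Pnp, purine nucleoside phosphorylase, and Xdh, which makes uric acid, stood at 2.71 and 1.61 and were picked once their values were seen. The 18 breakdown genes together summed to 60182 ± 3707 in ASCs (SD, n = 3) and 16915 ± 923 in FAPs (SD, n = 2), a ratio of 3.56, with Pnp or Xdh the most abundant gene in every one of these libraries. Summed as shares of all reads, which carry no size factor, the ratio was 2.40. Among the steps next to the members, Ctps was called higher in ASCs at 1.77, Adss at 0.78, Gmps at 0.71, Prps1 at 0.64, Mthfd2 at 1.53, Psat1 at 1.88, Aprt at 0.83 and Hprt at 0.73. The calls of Gmps, Adss, Prps1 and Hprt were lost with a common 75th percentile and with equal totals, and that of Aprt with equal totals. The Prps1 call was also lost without ASC replicate 1 (0.48). Rrm1 and Rrm2 were called at 0.89 and 0.65, and the Rrm2 call was lost without ASC replicate 3 (0.63) and without FAP replicate 1 (0.21). With equal totals both calls were lost (0.32 and 0.09), and that of Rrm2 also with a common 75th percentile (0.44), by edgeR (0.54) and with only these groups in the fit. Tk2 (−0.79), Slc29a2 (−0.75) and, named after their values were seen, Uckl1 (−0.68), Ak5 (−1.02) and Mycn (−1.37) were the 5 genes called lower, and Slc29a2 lost its call in most alternatives.

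In injured FAPs against ASCs 39 of the 78 genes were called higher and 16 lower (25.0% and 25.8% of all tested genes), and with equal totals 56 and 10. Rrm2 (4.74), Shmt1 (4.67), Tk1 (5.80) and Tyms (3.37) were again far higher in injured FAPs. Without single libraries Shmt1 ranged from 4.03 to 5.14 and Tk1 from 5.39 to 6.04. Ctps, Dhodh, Gmps and Adss stood at 1.26, 1.01, 0.99 and 0.61. The Adss call was lost when ASC replicate 3 was left out (0.56), and also without injured FAP replicate 3 (0.54). Breakdown genes leaned the other way, with 4 called higher, namely Nt5c3b (0.92) and, named after their values were seen, Cda (1.38), Ampd2 (0.78) and Nt5c (0.61), and 9 called lower, led by Nt5e, the surface 5′-nucleotidase, at −2.86. Nt5e read 1323, 1384 and 2073 in ASCs and 213, 207 and 222 in injured FAPs.

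Myc is a transcription factor known to bind the promoters of many nucleotide synthesis genes. It was highest in ASCs, while the members were highest in injured FAPs. The part of Myc in their changes was not tested. Of 6 tested genes of its family 1, Myc itself, was called higher in injured FAPs against FAPs and 3 were called lower. The shares of all tested genes were 24.9% and 27.7%. Myc read 6473 and 5426 in FAPs, 12853, 11025 and 9819 in injured FAPs, and 35722, 25499.5 and 31148 in ASCs. ASCs were the highest group, injured FAPs the middle one and FAPs the lowest, with no overlap. Myc was called higher in injured FAPs against FAPs at 0.91 ± 0.164 (SE, adjusted p = 0.000704) and in ASCs against FAPs at 2.36 ± 0.164 (adjusted p = 1.49e-06), and lower in injured FAPs against ASCs at −1.45. Under quantile normalisation the last pair of values shrank to 1.54 and −0.69 and stayed called. Mxd4, a Myc antagonist of the same family, was called lower in injured FAPs against FAPs at −1.22, as were Mxd1 (−0.71) and Mycn (−1.89), named after their values were seen.

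Markers of dividing cells were higher in injured FAPs, as the members were. The 8 markers added up to 32679 to 34198 normalised counts in injured FAPs, to 1371 and 1706 in FAPs and to 2744 to 3469 in ASCs. Of them 8 of 8 were called higher in injured FAPs against FAPs, beside 24.9% of all tested genes. Mki67 was the most abundant of them in injured FAPs and Pcna in FAPs and ASCs, and none was at 0 in any library. Their part in the result was not tested. Of the markers of other cells, the smooth muscle and pericyte genes summed to 7667 to 8137 in injured FAPs, against 18082 and 15852 in FAPs and 375 to 838 in ASCs, with Rgs5 or Acta2 the most abundant in FAPs and Cspg4 in injured FAPs. Endothelial genes summed to 5466 and 3620.2 in FAPs, with Emcn and Vwf at 0 in both, to 1207 to 1552 in injured FAPs, and to 5139 to 6916 in ASCs, mostly Tek. Skeletal muscle fibre genes summed to 686 and 828 in FAPs, 194 to 242 in injured FAPs and 108 to 149 in ASCs. In the 8 stromal libraries satellite cell genes were at most 104 in sum, and adipocyte genes at most 109 (in ASCs). Of 6 tested leukocyte genes 4 were called higher in injured FAPs against FAPs and 0 lower (24.9% and 27.7% of all tested genes). The 4 were Lyz2, Csf1r, Adgre1 and Cd74, all at 0 in both FAP libraries. They passed the filter on low values only through other groups and could not be called lower. Their count is thus no result beside those shares, and their fold changes depend on the added count of 1. The part of these cells in the results was not tested.

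Among genes outside all lists with a mean of at least 100, the 5 whose log2 values over the 8 libraries were nearest to the mean profile of the members were Ppm1g, Hdgf, Naa10, Nxt1 and Eftud2, of 10485 candidates. The root mean square difference from that profile was 0.0330 for Ppm1g, which read 1049.8 and 1043 in FAPs, 2993, 3022 and 3011 in injured FAPs, and 1142, 1242 and 1021 in ASCs. It was 0.0533 for Hdgf, 0.0654 for Naa10, 0.0761 for Nxt1 and 0.0773 for Eftud2. Of the members themselves, Paics (0.0953) and Cad (0.131) lay nearest to the shared profile and Impdh1 (0.493), Impdh2 (0.450) and Pfas (0.394) farthest from it.

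In the CD31+CD45+ library the members were unlike those of the stromal cells in their proportions. Cad read 545, Atic 454, Gart 383 and Umps 189.9, each below all 8 stromal libraries as deposited. As shares of all reads, Gart there lay above ASC replicates 1 and 3. Paics (1697), Impdh2 (1429.7), Adsl (487), Ppat (295) and Pfas (223) lay within the range of the 8. With 1 library, these are values with no test.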

How the data were processed

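RNA of 9 libraries was sequenced at BGI with a DNBSeq kit. The authors used HISAT2 for alignment to mm10 and featureCounts (Subread) for counting per gene, and deposited a normalised signal per gene and library. In each library 100% of the values were whole reads divided by a size factor (tolerance 0.01 reads), and 3 reads are worth a value of 2.29 to 4.71. Here log2(value + 1) was fitted with limma 3.58.1 in R 4.3.3, with a trend, 1 mean per group and the 8 ASC, FAP and injured FAP libraries, on 13601 genes whose mean reaches 10, which leaves 5 residual degrees of freedom. P-values were adjusted over all of them by Benjamini-Hochberg, and called means that the adjusted p is under 0.05 and that the log2 fold change passes 0.58. The Impdh ratio was tested by an exact two-sided permutation test that doubles the p of a single tail. Alternatives covered the pseudocount, the filter, quantile, 75th percentile and equal-total scaling, the thresholds, the groups in the fit, a replicate block, each library left out, and edgeR 4.0.16 and DESeq2 1.42.0 on the recovered reads, which called 3586 and 3485 genes higher and 3717 and 3742 lower in injured FAPs against FAPs, beside 3388 and 3765 by limma. Positions and exon lengths came from GENCODE M21, which matched 24918 of the 26214 genes and all 10 members.

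The members and lists were chosen with earlier results of these data known. Named genes are the members, 15 fixed neighbours in the pathway, in each list and comparison the called genes with the largest rise and fall at a mean of at least 100, and the 5 genes nearest to the mean profile of the members. Further genes of the lists were named after their values were seen, as said where they appear, and so were single markers of other cells. The lists are phosphoribosyl pyrophosphate supply, remaining de novo steps, deoxynucleotide synthesis, salvage, breakdown, one-carbon folate enzymes, serine synthesis, nucleotide kinases, nucleoside transporters and the Myc family, with markers of sorted stromal cells, endothelium, leukocytes, muscle fibres, satellite cells, smooth muscle and pericytes, Schwann cells, adipocytes and dividing cells. The groups were taken from the labels.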

Additional observations from a re-analysis of the deposited data

Results flagged for a closer look

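Impdh1 read 3531 normalised counts in the CD31+CD45+ library, which entered no comparison, above all 8 stromal libraries, where it read 803 to 1302. Per kilobase of exons this was 1072, beside 302 in FAPs, 375 in injured FAPs and 261 in ASCs. Impdh1 was the member that lay above the stromal range in that library. The endothelial markers summed to 261439 in it, those of smooth muscle and pericytes to 70555 and the leukocyte markers to 29265. The library has no replicate, so its difference from the others was not tested.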

How the results depend on the processing

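In injured FAPs against FAPs, 9 members were called higher in 20 of the 21 alternatives and 10 with no fold threshold. In ASCs against FAPs the number called higher was 0 to 4, and in injured FAPs against ASCs 8 to 10. Scaling each library to an equal total gave 1594 genes higher and 6317 lower in ASCs against FAPs and 7377 higher and 1692 lower in injured FAPs against ASCs. In ASCs against FAPs it called 0 members higher and 5 lower and 12 genes of the other lists higher and 28 lower, and in injured FAPs against ASCs 56 of those higher and 10 lower. With a common 75th percentile 1 member was called higher and 12 list genes lower in ASCs against FAPs, and with no fold threshold 10 list genes were lower. Leaving out a library gave 3 to 10 list genes lower there.

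Signs turned in ASCs against FAPs with equal totals for Paics (−0.23), Cad (−0.49), Prps2 (−0.49), Ctps2 (−0.10), Shmt2 (−0.47) and Tyms (−0.52), with a common 75th percentile for Cad (−0.14), Prps2 (−0.13), Shmt2 (−0.11) and Tyms (−0.16), and under quantile normalisation for Cad (−0.23), Dhodh (0.13) and Shmt2 (−0.12). In injured FAPs against ASCs Ctps2 turned to 0.0034 with a common 75th percentile and to 0.59 with equal totals. These scalings differ by construction in the median they give all genes. With single libraries left out, log2 fold changes in ASCs against FAPs ranged from −0.35 to 0.041 for Gart, from −0.013 to 0.15 for Cad, from −0.0018 to 0.16 for Prps2, from −0.27 to 0.029 for Dhodh, from −0.052 to 0.23 for Shmt2 and from −0.25 to 0.26 for Tyms. In injured FAPs against FAPs Adssl1 ranged from −1.02 to 0.032. The Impdh log2 ratio in injured FAPs against ASCs ranged from −0.18 to 0.13. Where leaving out a library changed a result, the cause was not tested.

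A block for the replicate number left the members called at 9 higher in injured FAPs against FAPs, 3 higher and 1 lower in ASCs against FAPs and 8 higher in injured FAPs against ASCs. With it Slc29a2 lost its calls in injured FAPs against FAPs (adjusted p = 0.0521) and in ASCs against FAPs (0.0641). Libraries with the same replicate number were not alike, with correlations of −0.054 to 0.045 between their residuals across genes. Without 1 FAP library the lone one is assumed to vary like the other groups. Of the other values of single genes and lists, 3186 kept their direction and their side of the thresholds or moved little, 85 counts and values moved, 30 gained and 55 lost a call. FAPs have 2 libraries, all libraries are pools, strand and multiple-match settings are not stated, and genes under about 3 reads, such as Upp1 in FAPs, have no reliable fold change.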
